A study of Bos taurus with 18 samples.

Results

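The miR-30 family was followed through the fattening of Japanese Black steers, in plasma RNA taken from exosomes (EX fraction) and in the plasma RNA outside them (non-exosomal free circulating, FC fraction). Its members were taken by name, as the 6 mature miRNAs *bta-miR-30a-5p*, *bta-miR-30b-5p*, *bta-miR-30c*, *bta-miR-30d*, *bta-miR-30e-5p* and *bta-miR-30f*, out of 1071 miRNAs listed. Plasma came from the jugular vein of the same 3 steers at about 20, 25 and 30 months of age, all under 1 feeding system, and each plasma sample gave 1 EX and 1 FC small RNA library. Each group of fraction and age therefore held 3 libraries, 1 per steer, and age went together with the time spent on the fattening diet. The values are CPM-normalized counts (CPM), a count as a share of the total of its library. Since all are shares of a library, a value also moves when other miRNAs of that library change. Nor can a lower value tell fewer releasing cells from less miRNA released per cell.

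A miRNA guides a silencing complex to messenger RNAs, and the bases near its 5′ end, the seed, do most of the choosing. Members of a family share the seed and so can share targets, while the 3′ part tells them apart and adds to pairing at some sites. The miR-30 family is known for high levels in many tissues and for roles in fat cell differentiation, where members favour the adipocyte program by lowering *RUNX2*, a driver of bone cell fate. In blood, its members come from several organs and from blood cells.

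The 6 sequences are shown because the 3 members of higher level and the 3 of lower level differ in their 3′ parts. Capitals mark the seed, bases 2 to 8 counted from the 5′ end.
bta-miR-30a-5p: uGUAAACAuccucgacuggaagcu
bta-miR-30d: uGUAAACAuccccgacuggaagcu
bta-miR-30e-5p: uGUAAACAuccuugacuggaagcu
bta-miR-30b-5p: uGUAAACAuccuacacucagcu
bta-miR-30c: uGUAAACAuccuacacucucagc
bta-miR-30f: uGUAAACAcccuacacucucagcu

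All 6 members carried 1 seed, which 0 other miRNAs of the table shared. The first 3, *bta-miR-30a-5p*, *bta-miR-30d* and *bta-miR-30e-5p*, were the same from base 14 to base 24 and are called the 30a/d/e set here. Within it, *bta-miR-30a-5p* and *bta-miR-30d* differed by U12C, and *bta-miR-30a-5p* and *bta-miR-30e-5p* by C13U. The other 3 were the same from base 10 to base 18 and are called the 30b/c/f set. There, *bta-miR-30c* and *bta-miR-30f* differed within their shared length by U9C, and *bta-miR-30b-5p* and *bta-miR-30c* had 0 differences in their first 18 bases and 4 in the next 4. Between the sets, identity over the shared length ranged from 63.6% for *bta-miR-30b-5p* with *bta-miR-30d* to 78.3% for *bta-miR-30c* with *bta-miR-30a-5p* or *bta-miR-30e-5p*.

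Reads too short to reach a difference can be divided between members. Of the 108 member counts, 58 were whole numbers and 50 were not. In the RefSeq gene table of assembly ARS-UCD2.0, the miRNA gene nearest to *MIR30B* was *MIR30D*, that nearest to *MIR30C* was *MIR30E*, and that nearest to *MIR30A* was *MIR30F*. Each pair of neighbours held 1 member of each set. The opposite arm *bta-miR-30b-3p* had a count of 0 in all 9 EX libraries and counts of at most 19 in FC, where it was 0 in 5 of 9.

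Library totals ran from 991354 to 2778618 counts in EX and from 3615234 to 12088735 in FC, so EX values rest on fewer reads. By counting error alone, a count of 0 allows up to 3 counts. That is 1.08 to 3.03 CPM in an EX library and 0.248 to 0.830 CPM in an FC library. This floor takes no account of the most common count, given next. Many miRNAs of low level in a library shared nearly 1 count, the most common count, which was 37 to 87 in the EX libraries at 30 months and 13 to 42 at 20 and 25 months. In FC it was 17 to 28 at 30 months and 4.56 to 18 before. As a share of the library total that count was largest in the 3 EX libraries at 30 months. All 6 members passed the filter, CPM > 5 in 3 or more libraries of a fraction, in both fractions, among 345 miRNAs kept in EX and 358 in FC.

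The family took 3.89% ± 0.344 (SD, n = 3) of the EX libraries at 20 months, 3.31% ± 0.475 at 25 months and 3.25% ± 0.116 at 30 months. In FC it took 5.04% ± 0.438, 4.58% ± 0.414 and 5.13% ± 0.243. The 30b/c/f set made up 3.41% ± 0.348 of the family in EX at 20 months, 3.96% ± 0.383 at 25 months and 0.760% ± 0.316 at 30 months. In FC its share of the family was 1.86% ± 0.675, 2.86% ± 0.552 and 0.749% ± 0.0641. In both fractions the 3 libraries at 30 months lay below all 6 earlier ones, with a highest share of 1.02% in EX and 0.823% in FC.

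By mean CPM the order of the members was *bta-miR-30e-5p*, *bta-miR-30d*, *bta-miR-30a-5p*, *bta-miR-30c*, *bta-miR-30b-5p* and *bta-miR-30f* in all 6 groups. *bta-miR-30e-5p* ranked 8 to 19 among all miRNAs in the EX libraries and 7 to 11 in the FC libraries. The step between the sets, from *bta-miR-30a-5p* to *bta-miR-30c*, was 6.91-fold in EX at 20 months, 5.42-fold at 25 months and 52.6-fold at 30 months. In FC it was 12.5-fold, 7.36-fold and 42.1-fold. The step from *bta-miR-30b-5p* to *bta-miR-30f*, inside the 30b/c/f set, was 11.1-fold, 12.9-fold and 5.02-fold in EX and 7.74-fold, 9.26-fold and 8.51-fold in FC, and so was the wider of the 2 in EX at 20 and 25 months and in FC at 25 months. Neighbours in the order did not always separate. The ranges of *bta-miR-30e-5p* and *bta-miR-30d* overlapped at 30 months in both fractions, those of *bta-miR-30d* and *bta-miR-30a-5p* in FC at 20 months, and those of *bta-miR-30c* and *bta-miR-30b-5p* in EX at 20 and 30 months. In EX at 30 months *bta-miR-30b-5p* also overlapped with *bta-miR-30f*.

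**Figure D1:**
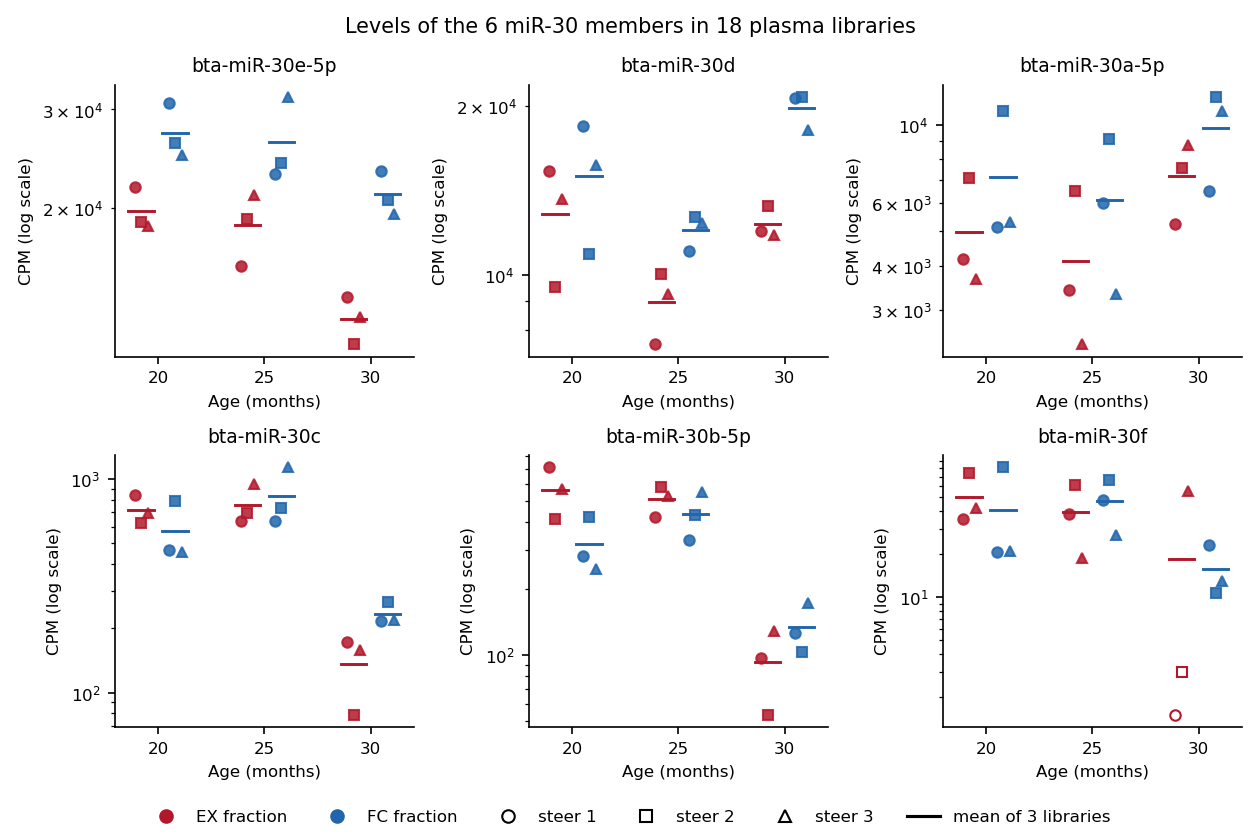
CPM of each member (log scale, with a scale of its own in each panel) against age, red for EX and blue for FC, with 1 symbol per steer and a bar at the mean of 3 libraries. Open symbols stand for a count of 0 and are drawn at the CPM of 3 counts, a floor for counting error only. *bta-miR-30c* and *bta-miR-30b-5p* lie lower at 30 months than at either earlier age in every steer and fraction, while *bta-miR-30d* and *bta-miR-30a-5p* do not.

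Of the 30b/c/f set, *bta-miR-30b-5p* and *bta-miR-30c* fell between 25 and 30 months in both fractions, and *bta-miR-30f* passed in no comparison of ages. *bta-miR-30b-5p* stood at 711, 412 and 565 CPM in the EX libraries of steers 1, 2 and 3 at 20 months, at 421, 576 and 529 CPM at 25 months, and at 96.3, 53.5 and 128 CPM at 30 months. All 3 libraries at 30 months lay below all 6 earlier ones. Against 25 months its log2 fold change was -2.98 (SE 0.39, FDR 0.00295, lower in 3 of 3 steers), by edgeR's quasi-likelihood test with steer as a block and Benjamini-Hochberg adjustment over all 345 miRNAs. Against 20 months it was -2.98 (SE 0.39, FDR 0.00656). Both comparisons use the same 30 months libraries and are not independent.

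*bta-miR-30c*, which has the same first 18 bases as *bta-miR-30b-5p*, followed the same course. It stood at 842, 621 and 695 CPM in EX at 20 months, at 634, 698 and 947 CPM at 25 months, and at 173, 78.7 and 159 CPM at 30 months. All 3 libraries at 30 months again lay below the 6 earlier ones. It fell by 2.98 on the log2 scale between 25 and 30 months (SE 0.37, FDR 0.00295) and by 2.79 between 20 and 30 months (SE 0.37, FDR 0.00656), in 3 of 3 steers each. Leaving out steer 2 or 3 took the FDR of both miRNAs between 25 and 30 months to between 0.0582 and 0.0584, with log2 fold changes still between -3.12 and -2.62, and leaving out steer 1 or 2 took that between 20 and 30 months to between 0.0639 and 0.0853.

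In EX at 30 months, however, both stood close to the most common count of their libraries. The counts of *bta-miR-30b-5p* were 191.5, 53 and 139, which is 0.768 to 3.76 times the most common count of the library, and those of *bta-miR-30c* were 343.5, 78 and 172, or 1.13 to 4.65 times. With all counts divided by that most common count, a setting added after the data were seen, the fold change between 25 and 30 months was -2.86 for *bta-miR-30b-5p* (FDR 7.62e-07) and -2.98 for *bta-miR-30c* (FDR 6.57e-09).

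The FC fraction, with the deeper libraries, gave the same direction with smaller values. *bta-miR-30b-5p* stood at 282, 424 and 246 CPM at 20 months, at 332, 433 and 548 CPM at 25 months, and at 126, 103 and 171 CPM at 30 months. *bta-miR-30c* stood at 466, 793 and 456 CPM, then at 636, 734 and 1137 CPM, and then at 216, 266 and 219 CPM. For both, all libraries at 30 months lay below all earlier ones. Their counts at 30 months were 13.4 to 36.1 and 34.4 to 61.8 times the most common count of the library, well clear of it.

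Between 25 and 30 months in FC, *bta-miR-30b-5p* fell by 1.84 on the log2 scale (SE 0.39, FDR 0.0194) and *bta-miR-30c* by 1.99 (SE 0.39, FDR 0.0153), each in 3 of 3 steers. Leaving out steer 1 or 3 took these FDRs to between 0.0775 and 0.0942. Against 20 months the differences were smaller and did not pass, with log2 fold changes of -1.29 (SE 0.38) and -1.28 (SE 0.38) and an FDR of 0.0743 for both by the quasi-likelihood test. The likelihood ratio test gave FDRs of 0.0183 and 0.0145, and DESeq2 0.0193 for both.

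*bta-miR-30f*, 1 base away from *bta-miR-30c* over their shared length, was the scarcest member. In EX it stood at 35.3, 74.5 and 41.9 CPM at 20 months, at 38.0, 61.2 and 18.9 CPM at 25 months, and at 0, 0 and 55.4 CPM at 30 months. The value of steer 3 at 30 months lay within the earlier range, and its count of 60 was 1.62 times the most common count of that library. In the libraries of steers 1 and 2, which were at 0, the most common count was 87 and 69. The floor of 3 counts covers counting error only and may be too low there. The log2 fold change between 25 and 30 months was -3.67 with an SE of 2.89 (FDR 0.447), and no change was detected. The steers did not agree, with a lower value in 2 of 3 and a higher one in steer 3. In FC it stood at 20.9, 81.1 and 21.1 CPM, then at 48.1, 66.3 and 27.4 CPM, and then at 23.3, 10.8 and 13.0 CPM. It was lower at 30 than at 25 months in 3 of 3 steers without passing (log2 fold change -1.53, SE 0.59, FDR 0.0974).

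**Figure D2:**
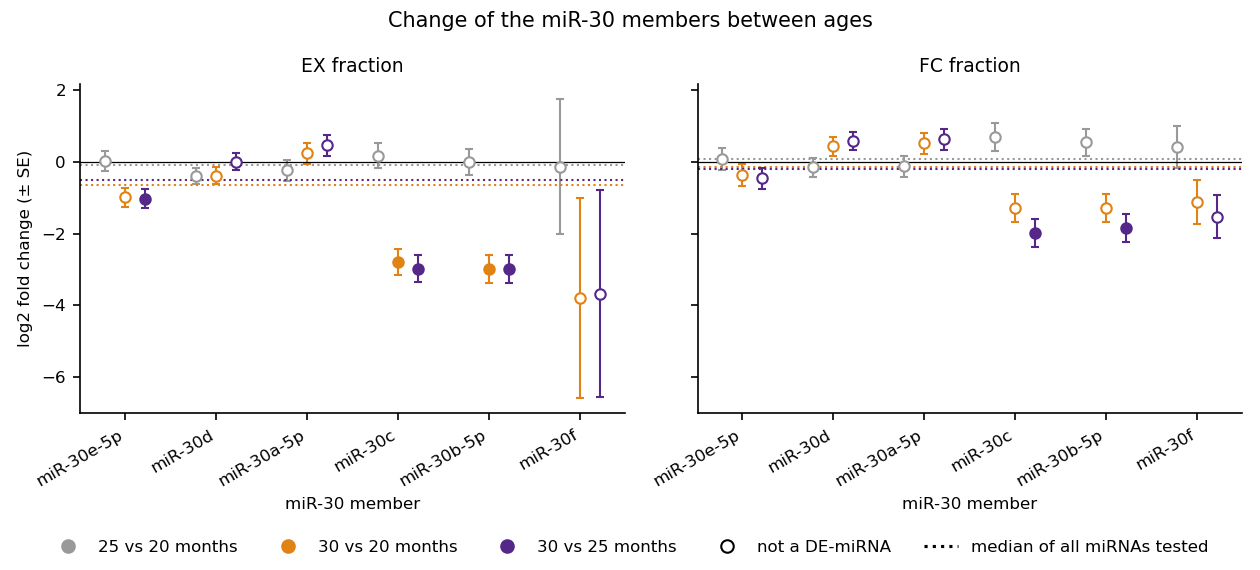
log2 fold change of each member between ages in EX (left) and FC (right), with SE. Filled circles passed both an FDR under 0.05 and an absolute log2 fold change over 1, open ones did not, and dotted lines give the median of all miRNAs tested. *bta-miR-30c* and *bta-miR-30b-5p* sit near -3 in EX and near -2 in FC between 25 and 30 months, and the 25 against 20 months values lie around 0.

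Of the 30a/d/e set, *bta-miR-30e-5p* alone was called between ages, in EX. *bta-miR-30e-5p* stood at 21783, 18878 and 18636 CPM in EX at 20 months, at 15770.3, 19172 and 21115 CPM at 25 months, and at 13889.8, 11452 and 12825 CPM at 30 months. All 3 libraries at 30 months lay below the 6 earlier ones, though steer 1 at 25 months came near. Its log2 fold change was -1.02 between 25 and 30 months (SE 0.27, FDR 0.0410) and -0.98 between 20 and 30 months (SE 0.27, FDR 0.0468), the latter short of the fold limit. The former call rests on the scaling: with library totals alone its log2 fold change was -0.56 (FDR 0.157), and without steer 1, 2 or 3 its FDR was 0.0666, 0.201 and 0.193.

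In FC, *bta-miR-30e-5p* stood at 30801, 26185 and 24881 CPM at 20 months, at 23045, 24116 and 31589.7 CPM at 25 months, and at 23264, 20691 and 19568 CPM at 30 months. The groups overlapped through steer 1. The log2 fold change between 25 and 30 months was -0.46 (SE 0.30, FDR 0.298), and against 20 months it was -0.36 (FDR 0.434), lower in 3 of 3 steers.

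*bta-miR-30d*, which lies next to *bta-miR-30b-5p* in the genome, passed in no comparison of ages. In EX it stood at 15339, 9549 and 13667 CPM at 20 months, at 7539, 10068 and 9257 CPM at 25 months, and at 12015, 13284 and 11802 CPM at 30 months. In FC it stood at 18480.4, 10899 and 15712 CPM, then at 11039, 12694 and 12392 CPM, and then at 20731, 20791 and 18141 CPM. All libraries at 30 months lay above those at 25 months in both fractions. The log2 fold change between these ages was 0.01 in EX (SE 0.23, FDR 0.978) and 0.59 in FC (SE 0.26, FDR 0.139), higher in 3 of 3 steers in FC. Against 20 months it was -0.38 in EX (SE 0.23, FDR 0.330), lower in 3 of 3 steers with TMM scaling and in 2 of 3 by CPM, and 0.44 in FC (SE 0.26, FDR 0.291), higher in 3 of 3 steers.

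*bta-miR-30a-5p* had the highest coefficient of variation between steers within the 30a/d/e set in all 6 groups, from 24.8% to 52.2%. In EX it stood at 4168, 7077 and 3666 CPM at 20 months, at 3422, 6522 and 2398 CPM at 25 months, and at 5244, 7581 and 8755 CPM at 30 months. In FC it stood at 5158, 10938 and 5329.9 CPM, then at 5998, 9117 and 3325 CPM, and then at 6516, 12010.0 and 10954 CPM. Steer 2 was highest at 20 and 25 months in both fractions, and the ages overlapped. Between 25 and 30 months the log2 fold change was 0.47 in EX (SE 0.29, FDR 0.322) and 0.64 in FC (SE 0.29, FDR 0.150), and against 20 months it was 0.24 (FDR 0.634) and 0.53 (FDR 0.266).

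A member counts as a differentially existing miRNA (DE-miRNA) here with an FDR under 0.05 and an absolute log2 fold change over 1. In EX between 25 and 30 months 3 of 6 members met this, all lower, beside 14.2% of all miRNAs tested in either direction and 10.4% lower. Between 20 and 30 months in EX 2 of 6 met it, beside 13.3% of all. In FC 2 of 6 met it between 25 and 30 months, beside 15.6%. Between 20 and 30 months in FC 0 of 6 met it by edgeR's quasi-likelihood test, beside 6.98%, with 2 of 6 at an unadjusted p under 0.05 (29.1% of all) and 2 of 6 called by DESeq2, beside 16.8% of the 309 miRNAs to which it gave an adjusted p, and by the likelihood ratio test, beside 14.8% of all. Between 20 and 25 months 0 of 6 members met it in either fraction by edgeR's quasi-likelihood test, beside 0.29% of all miRNAs in EX and 0.0% in FC. An unadjusted p under 0.05 was found for 0 of 6 members, beside 2.32% of all miRNAs in EX and 3.63% in FC. DESeq2 and the likelihood ratio test also called 0 members between 20 and 25 months, beside 0.87% and 0.29% of all miRNAs in EX and 0.0% by both in FC.

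The scaling sets part of these values. With TMM scaling, the median log2 fold change of all 345 EX miRNAs between 25 and 30 months was -0.51, and 26.5% of the calls were higher. With library totals alone the median was -0.04 and 50% were higher. The falls of *bta-miR-30b-5p* and *bta-miR-30c* kept an FDR of 0.0085 and 0.00422 on that scale, with log2 fold changes of -2.54 and -2.53, while *bta-miR-30d* stood at 0.47 (FDR 0.267). Relative to the TMM median, *bta-miR-30b-5p* was lower by 2.47 and *bta-miR-30d* higher by 0.52 on the log2 scale.

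Ratios between members of 1 library do not depend on its total. The ratio of *bta-miR-30d* to its genomic neighbour *bta-miR-30b-5p* in EX was 21.6, 23.2 and 24.2 at 20 months. It was 17.9, 17.5 and 17.5 at 25 months against 125, 248 and 91.9 at 30 months. In FC it was 65.4, 25.7 and 63.8, then 33.3, 29.3 and 22.6, and then 164, 201 and 106. These neighbours thus stood further apart at 30 months than at any earlier age in each fraction, and the spread between the 3 EX libraries at 25 months was under 1 unit. The EX ratios at 30 months rest on *bta-miR-30b-5p* counts of 0.768 to 3.76 times the most common count.

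The ratio of *bta-miR-30e-5p* to its neighbour *bta-miR-30c* went the same way, at 27.7 ± 2.39 (SD, n = 3), 24.9 ± 2.58 and 102 ± 37.5 in EX and at 51.2 ± 16.8, 32.3 ± 4.26 and 91.6 ± 15.3 in FC. For the neighbours *bta-miR-30a-5p* and *bta-miR-30f* the ratio in EX was 87.4 to 118 and 90.1 to 127 at 20 and 25 months. At 30 months only 1 EX library had a ratio, 158, since *bta-miR-30f* was at 0 in the others. In FC the ranges were 135 to 253, 121 to 137 and 280 to 1113. Within the sets, the means of 2 ratios moved less between 25 and 30 months, that of *bta-miR-30c* to *bta-miR-30b-5p* and that of *bta-miR-30e-5p* to *bta-miR-30d*. *bta-miR-30c* stood at 1.31 ± 0.175, 1.5 ± 0.289 and 1.5 ± 0.279 times *bta-miR-30b-5p* in EX and at 1.79 ± 0.124, 1.89 ± 0.191 and 1.85 ± 0.660 times in FC. *bta-miR-30e-5p* stood at 1.59 ± 0.339, 2.09 ± 0.188 and 1.03 ± 0.154 times *bta-miR-30d* in EX and at 1.88 ± 0.451, 2.18 ± 0.334 and 1.07 ± 0.0645 times in FC. All 6 libraries at 30 months had a ratio of *bta-miR-30e-5p* to *bta-miR-30d* under the lowest of the 12 earlier ones. The ratio of *bta-miR-30d* to *bta-miR-30a-5p* varied widely between steers. It ranged from 1.35 to 3.73, 1.54 to 3.86 and 1.35 to 2.29 in EX at the 3 ages. In FC it ranged from 0.996 to 3.58, 1.39 to 3.73 and 1.66 to 3.18. The other ratios within the sets are not given.

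**Figure D3:**
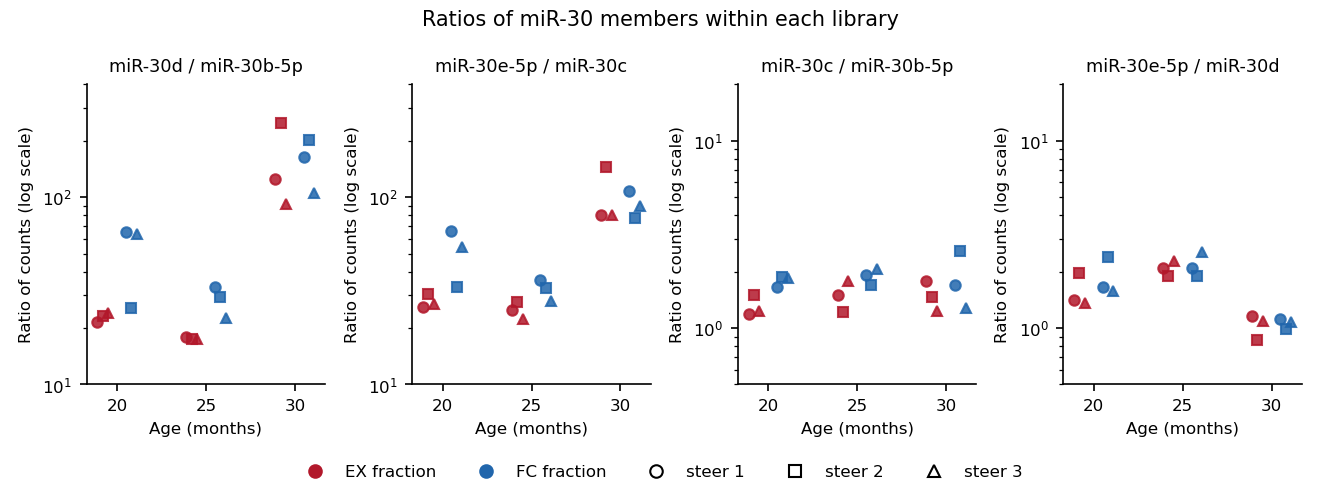
Ratios of the counts of 2 members within each library (log scale) against age, red for EX and blue for FC, with 1 symbol per steer. The ratios of genomic neighbours in the left 2 panels lie highest at 30 months, that of *bta-miR-30c* to *bta-miR-30b-5p* stays between 1.18 and 2.57, and that of *bta-miR-30e-5p* to *bta-miR-30d* lies lowest at 30 months.

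The fractions of the same plasma were compared with plasma sample as a block over the 330 miRNAs kept in both. The 30a/d/e set was lower in EX than in FC in 3 of 3 steers at each age. At 20 months the log2 difference was -0.54 for *bta-miR-30a-5p* (SE 0.12, FDR 0.0216), -0.26 for *bta-miR-30d* (SE 0.07, FDR 0.0397) and -0.51 for *bta-miR-30e-5p* (SE 0.08, FDR 0.00302). At 25 months it was -0.61, -0.45 and -0.51, with FDRs of 0.0113, 0.00259 and 0.00259. At 30 months it was -0.70, -0.95 and -1.0, with FDRs of 0.00324, 3.51e-05 and 3.51e-05.

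Members under the FDR limit were thus 3, 3 and 4 of 6, the fourth being *bta-miR-30c* at 30 months, beside 9.39%, 6.97% and 22.1% of all miRNAs. The median difference of all 330 miRNAs was -0.14, -0.34 and -0.56 at these ages. With 1 steer left out the FDRs at 20 and 25 months rose to between 0.0509 and 0.476. Without plasma sample as a block they were between 0.514 and 0.898, and at 30 months 0.102, 0.0117 and 0.0247.

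By edgeR's quasi-likelihood test 0 of 3 members of the 30b/c/f set passed at 20 and 25 months. *bta-miR-30b-5p* had a log2 difference between EX and FC of 0.79 at 20 months (SE 0.29, FDR 0.170), of 0.22 at 25 months (SE 0.28, FDR 0.813) and of -0.84 at 30 months (SE 0.29, FDR 0.0620). Its value at 20 months passed the FDR limit by DESeq2 (0.88, FDR 0.0152), with counts divided by the most common count (0.70, FDR 0.0215) and without steer 2 (1.26, FDR 0.0354). For *bta-miR-30c* it was 0.33 (SE 0.31, FDR 0.815), -0.13 (SE 0.31, FDR 0.906) and -1.09 (SE 0.32, FDR 0.0396). The last of these also passed the fold limit, as 1 of 6 members beside 13.6% of all miRNAs. It was -0.83 with library totals alone (FDR 0.0739). For *bta-miR-30f* the SE was between 1.22 and 2.12 at every age and no difference passed by edgeR's quasi-likelihood test. DESeq2 gave -4.015 at 30 months (FDR 0.00587), where 2 of 3 EX libraries were at 0.

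The difference between the fractions changed from 25 to 30 months by -0.49 on the log2 scale for *bta-miR-30d* (SE 0.10, FDR 0.0241) and by -0.49 for *bta-miR-30e-5p* (SE 0.11, FDR 0.0249), as 2 of 6 members under the FDR limit beside 6.97% of all miRNAs. The median change over all miRNAs was -0.32 with TMM scaling and -0.09 with library totals, under which these 2 values were -0.25 each and did not pass. The change was -1.06 for *bta-miR-30b-5p* (SE 0.41, FDR 0.165) and -0.96 for *bta-miR-30c* (SE 0.45, FDR 0.246), in 3 of 3 steers each. That their fall was larger in EX than in FC did not pass the test.

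**Figure D4:**
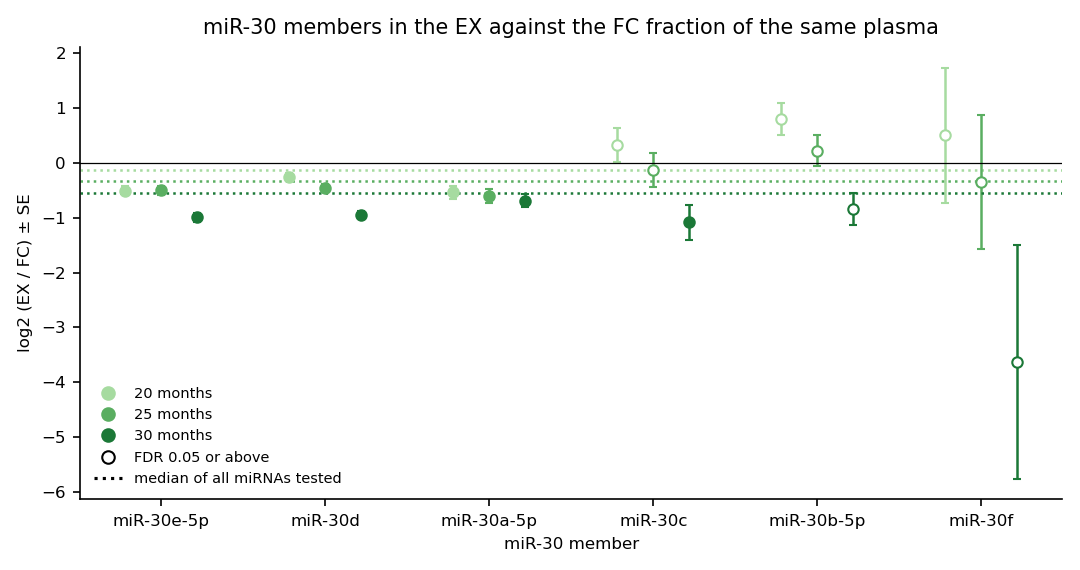
log2 difference between the EX and the FC library of the same plasma for each member at 20, 25 and 30 months, with SE. Filled circles have an FDR under 0.05, and dotted lines give the median of all 330 miRNAs at each age. The 30a/d/e set lies under 0 at every age, and *bta-miR-30c* and *bta-miR-30b-5p* do so at 30 months.

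Over the 12 libraries at 20 and 25 months, the pairs of members whose log2 CPM varied most alike were *bta-miR-30b-5p* with *bta-miR-30c* (Pearson r = 0.88), *bta-miR-30d* with *bta-miR-30e-5p* (r = 0.77) and *bta-miR-30a-5p* with *bta-miR-30f* (r = 0.76). The last pair are genomic neighbours from different sets. The other neighbours had r = 0.09 (*bta-miR-30b-5p* with *bta-miR-30d*) and r = 0.62 (*bta-miR-30c* with *bta-miR-30e-5p*). These libraries share steers, ages and plasma, and the values are a description without a test.

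The miRNAs outside the family most like each member were sought among 324 over all 18 libraries, with r over the 12 earlier libraries beside it. *bta-miR-30b-5p* was most like *bta-miR-150* (r = 0.94 over 18 libraries, 0.85 over 12), a miRNA of mature lymphocytes, followed by *bta-miR-2285bf* (0.91 and 0.65) and *bta-miR-142-5p* (0.90 and 0.66). *bta-miR-30c* was most like *bta-miR-142-5p* (0.96 and 0.89), a miRNA of blood-forming cells, and *bta-miR-32* (0.95 and 0.87), followed by a candidate miRNA without a miRBase name (0.94 and 0.86). *bta-miR-30e-5p* was most like *bta-miR-186* (0.94 over both), *bta-miR-142-5p* (0.88 and 0.84) and *bta-miR-2285dc* (0.88 and 0.75).

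The nearest miRNAs of the other members were different ones. *bta-miR-30a-5p* was most like *bta-miR-148a* (0.88 and 0.86), *bta-miR-122* (0.86 and 0.92), the main miRNA of liver cells, and *bta-miR-192* (0.82 and 0.79). Steer 2 was highest for both *bta-miR-30a-5p* and *bta-miR-122* at 20 and 25 months in both fractions. *bta-miR-30d* was most like *bta-miR-148b* (0.86 and 0.79), *bta-miR-425-3p* (0.79 and 0.74) and *bta-miR-151-3p* (0.73 and 0.78). For *bta-miR-30f* the nearest were *bta-miR-2285b* (0.83), *bta-miR-204* (0.81) and *bta-miR-154c* (0.81), but over the 12 earlier libraries r was -0.20, -0.47 and 0.44. Its likeness thus rests on the 30 months libraries, where it was at 0 in 2 of 3 EX libraries.

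**Figure D5:**
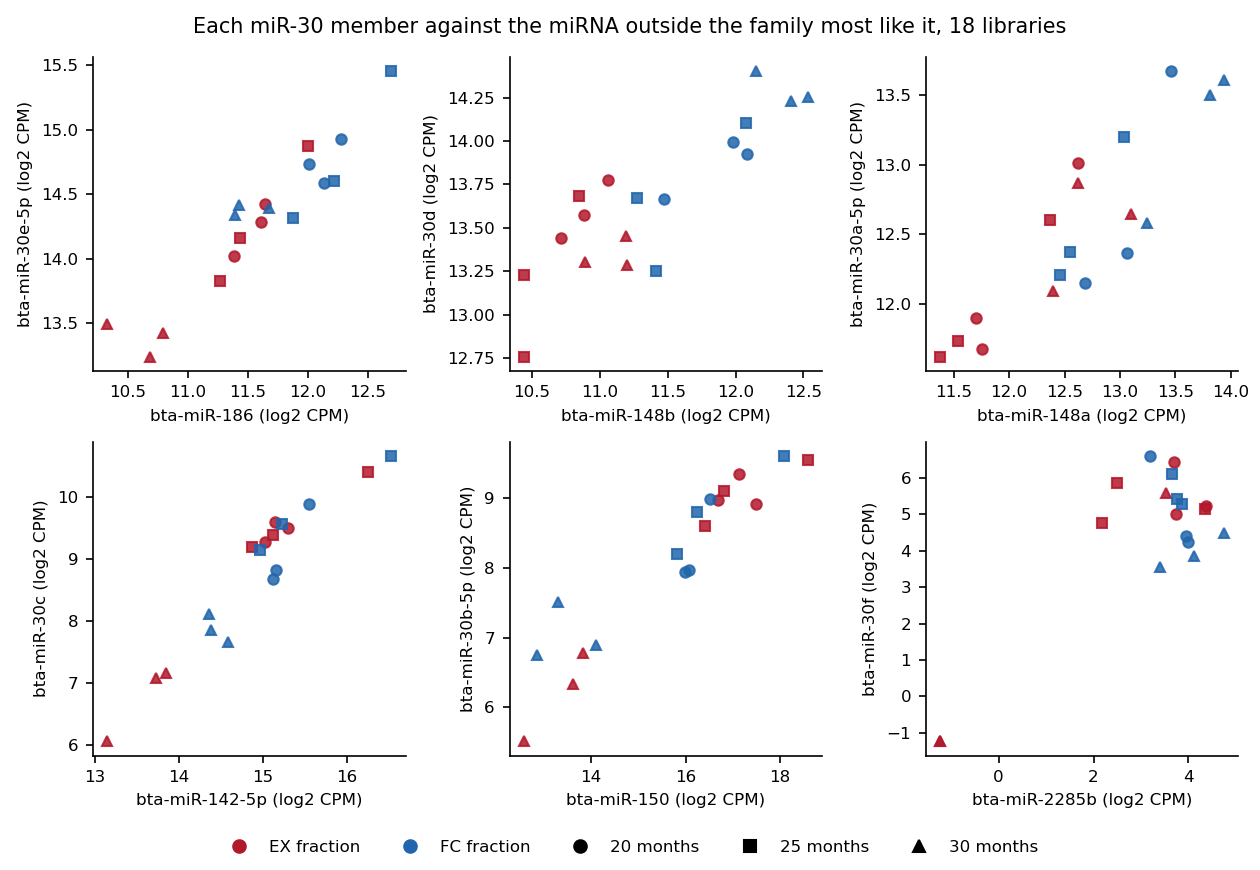
Each member against the miRNA outside the family most like it (log2 CPM with TMM scaling), 1 point per library, red for EX and blue for FC, with circles, squares and triangles for 20, 25 and 30 months. The points of *bta-miR-30c* and *bta-miR-30b-5p* at 30 months lie lowest on both axes, and *bta-miR-30f* has 2 libraries far below the rest.

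Marker miRNAs of blood and organ cells were read beside these results, and their part in them was not tested. The lymphocyte markers *bta-miR-150* and *bta-miR-342* were lower at 30 than at 25 months in both fractions (2 of 2), beside 10.4% of all miRNAs lower in EX and 10.1% in FC. Their summed level was 113415 to 324692 CPM in EX at 20 and 25 months and 13723 to 27464 CPM at 30 months, and in FC 79355 to 230827 CPM and 14651 to 26926 CPM, with 0 markers at 0. Steer 3 at 25 months stood apart, with *bta-miR-150* at 276263 CPM in EX, against 94908 and 120314 CPM in the other two steers, and at 194329 CPM in FC, against 65415 and 74960 CPM. The same 2 libraries held the highest levels of *bta-miR-30c*, 947 and 1137 CPM, and the lowest TMM factors, 0.743 and 0.734. Without steer 3, *bta-miR-30c* stood at -2.80 in EX (FDR 0.0582) and -1.47 in FC (FDR 0.0775) between 25 and 30 months, and *bta-miR-30b-5p* at -3.12 (FDR 0.0582) and -1.65 (FDR 0.0775). Of the myeloid and platelet markers, 2 of 3 were lower in EX, *bta-miR-142-3p* and *bta-miR-142-5p*, and 1 of 3 in FC, *bta-miR-142-3p*. The other marker, *bta-miR-223*, was not called in either fraction by edgeR's quasi-likelihood test. DESeq2 called 2 of 3 in each fraction, beside 24.6% of all miRNAs in EX and 22.3% in FC. The summed levels in EX were 54293 to 91439 CPM at 20 and 25 months and 36475 to 48305 CPM at 30 months. In FC the sums overlapped, at 71030 to 104346 CPM and at 69501 to 86490 CPM.

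Of 3 red cell markers, 1 was lower in EX between 25 and 30 months, *bta-miR-451* (log2 fold change -2.20, SE 0.51, FDR 0.0269), beside 10.4% of all miRNAs lower. In EX 2 of 3 had an unadjusted p under 0.05, all lower (29.6% of all miRNAs in either direction), and DESeq2 called 2 of 3 (24.6% of all). In FC 0 were called by edgeR's quasi-likelihood test, with 1 of 3 at an unadjusted p under 0.05 (37.2% of all miRNAs) and 1 of 3 called by DESeq2 (22.3% of all). Of 2 endothelial markers, 0 were called between 25 and 30 months in either fraction by edgeR's quasi-likelihood test or by DESeq2, which called 24.6% of all miRNAs in EX, and 0 had an unadjusted p under 0.05, beside 29.6% of all in EX. Between 20 and 30 months *bta-miR-126-3p* was higher in EX (log2 fold change 1.36, SE 0.28, FDR 0.0149). Of 2 liver markers, *bta-miR-122* was not called by edgeR's quasi-likelihood test (log2 fold change 1.04 in EX, FDR 0.166, and 0.72 in FC, FDR 0.287). *bta-miR-885* was lower in FC, as 1 of 2 beside 10.1% of all miRNAs lower. In EX 0 of 2 were called by that test and 1 of 2 by DESeq2, beside 24.6% of all. At 20 and 25 months the library of steer 2 stood out for *bta-miR-122* in each group, at 95221 and 72979 CPM in EX and at 121516 and 75377 CPM in FC. Of 5 muscle markers tested, 0 were called by edgeR's quasi-likelihood test, while DESeq2 called 1 of 5 in FC, beside the 22.3% of all given above, where 1 had an unadjusted p under 0.05. Of 5 epithelial markers, *bta-miR-141* was higher in FC (1 of 5, beside 5.59% of all miRNAs higher) and 0 were called in EX by edgeR's quasi-likelihood test, with 5 of 5 in FC and 2 of 5 in EX at an unadjusted p under 0.05, all higher. Their summed level was 3297 to 7371 CPM in EX at 20 and 25 months and 9350 to 15619 CPM at 30 months, and in FC 3247 to 8875 CPM and 11140 to 18978 CPM, so that the libraries at 30 months lay above all earlier ones, with 0 markers at 0. The summed levels of the red cell, endothelial, liver and muscle markers at 30 months overlapped with the earlier ones in both fractions.

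Other miRNAs linked to fat cell differentiation were read from a list of known ones. Of its 10, all tested, 2 were higher and 0 lower in EX between 25 and 30 months, beside 3.77% of all miRNAs higher and 10.4% lower, with a median log2 fold change of 0.11 beside -0.51 for all miRNAs. They were *bta-miR-130a* (1.43, SE 0.28, FDR 0.0117) and *bta-miR-130b* (2.25, SE 0.37, FDR 0.00730), which are known to lower *PPARG*, the main regulator of adipocyte formation. DESeq2 called 3 of 10 in EX, beside 24.6% of all miRNAs. There 4 of 10 had an unadjusted p under 0.05, 3 higher and 1 lower, beside 29.6% of all. In FC 0 of 10 were called by edgeR's quasi-likelihood test, beside 15.6% of all miRNAs, or by DESeq2, beside 22.3%. In that fraction 5 of 10 had an unadjusted p under 0.05, 4 higher and 1 lower, beside 37.2% of all miRNAs. The median in FC was 0.47 beside -0.20. The list's summed level in EX was 17109 to 38277 CPM at 20 and 25 months and 41482 to 43156 CPM at 30 months. In FC it was 20757 to 44481 CPM and then 48941 to 50082 CPM. All libraries at 30 months thus lay above the earlier ones in both fractions. Of the 10, *bta-miR-148a*, the miRNA most like *bta-miR-30a-5p*, stood higher by 0.96 on the log2 scale in FC (FDR 0.0261) and by 0.83 in EX (FDR 0.0332), and *bta-miR-107* stood at -0.90 in FC (FDR 0.0299) and -0.70 in EX (FDR 0.145), all short of the fold limit.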

How the data were processed

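Per the labels and the study's methods, both RNA fractions were extracted from the same plasma with a spin column kit, and small RNA libraries were read as single ends on an Illumina NovaSeq 6000. The authors trimmed the reads (the submitters' processing notes name cutadapt 5.0, Trimmomatic 0.39 and FastQC 0.12.1), mapped them to a genome of Japanese Black cattle and counted them per mature miRNA with miRDeep2. The deposited values are estimated counts, not all whole, and a table of CPM, which served to check the counts. Reads sharing a sequence carried no molecular identifiers that the sources used here mention, so intervals and floors cover counting error only.

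In 4 FC libraries the deposited counts stood a row away from the CPM in the lower part of the table. They were realigned by the CPM, which moved 0 of the member values. Rounded counts of miRNAs with CPM > 5 in 3 or more of 9 libraries were scaled by TMM and fitted with edgeR 4.0.16 (quasi-likelihood F test) in R 4.3.3, for each fraction with steer as a block, and over all 18 libraries with plasma sample as a block for the fractions. The Benjamini-Hochberg adjustment covered all miRNAs of a comparison. SEs were taken from the fold change and the F value. The steer numbers mark the same 3 animals at each age, per the study's supplement. The deviations of libraries from their group means correlated on average by 0.0262 within and -0.0131 between steers in EX, and by 0.134 and -0.067 in FC. Libraries of a group differed by a chi-square per degree of freedom of at least 195.6 in all 18 pairs, so none is a copy of another.

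The alternatives were a fit without the block, the likelihood ratio test, DESeq2 1.42.0, its size factors (RLE), library totals alone, no filter, the counts as deposited, and 1 steer left out. Counts divided by the most common count of the library were added after the data were seen. That count is the one with most values within a factor of 1.25 above a count of 4. The text names all members, the opposite arm, the 3 miRNAs most like each member (Pearson r of log2 CPM with a prior count of 2), the list for fat cell differentiation and the markers. A count called whole lies within 0.01 of a whole number. Members and lists were chosen with earlier results of these data known. The scripts were tested on simulated counts. Coordinates are not given, since the gene table has another assembly than the authors used. The qPCR and carcass data were not analysed here. Tables and figures used Python 3.11.15, numpy 2.4.6, pandas 2.3.3 and matplotlib 3.10.9.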

Additional observations from a re-analysis of the deposited data

Results flagged for a closer look

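The difference between the EX and the FC fraction changed between 25 and 30 months for 2 members, by the test of that change itself (edgeR's quasi-likelihood test with plasma sample as a block). For *bta-miR-30d* it changed by -0.49 on the log2 scale, in 3 of 3 steers (FDR 0.0241), and for *bta-miR-30e-5p* by -0.49, in 3 of 3 steers (FDR 0.0249). The change was between -0.47 and -0.51 in each steer for *bta-miR-30d* and between -0.34 and -0.71 for *bta-miR-30e-5p*, beside a median of -0.32 over all miRNAs. With library totals alone the change was -0.25 for both members and did not pass (FDR 0.173 and 0.199), and neither passed with no replicate block, with no filter, with counts divided by the most common count, or without steer 1 or 2.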

How the results depend on the processing

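The falls of *bta-miR-30b-5p* and *bta-miR-30c* between 25 and 30 months kept their direction under every alternative in both fractions, and their calls under all but those that left out a steer. Of 660 alternative values of single members in the 10 comparisons, 581 kept their direction and their side of the limits, 37 lost a call, 21 gained one and 21 changed sign, none of the last a called value. The 48 alternative mean levels moved by less than 1 SD.

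The counts of members called use both limits, except those for the change of EX against FC, which use the FDR alone. Among them, leaving out 1 steer gave 0 to 2 in EX between 25 and 30 months, 0 to 2 in EX between 20 and 30 months, 0 to 2 in FC between 25 and 30 months, 0 to 1 in EX against FC at 20 months, 1 to 3 at 30 months and 0 to 2 in the change of EX against FC. In FC between 20 and 30 months, where 0 were called, the likelihood ratio test, DESeq2, no filter and counts divided by the most common count each gave 2, and library totals alone gave 1. In EX against FC at 30 months, where 1 was called, the fit with no replicate block and that with library totals alone gave 0, and DESeq2, no filter and the divided counts gave 2 each. In the change of EX against FC, where 2 were called, the fit with no replicate block, library totals alone, no filter and the divided counts each gave 0. The block changed no other count of members called by over 1.5 times.

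The values that changed sign passed neither as reported nor in the setting that turned them. *bta-miR-30d* in EX between 25 and 30 months was -0.0065 without the replicate block, -0.0043 without the filter and -0.0999 with divided counts, and ran from -0.2166 to 0.1884 with 1 steer left out. With 1 steer left out *bta-miR-30a-5p* in EX between 20 and 30 months ran from -0.1228 to 0.5786. Between 20 and 25 months in EX these ranges were -0.1435 to 0.3783 for *bta-miR-30b-5p*, -0.1128 to 0.4572 for *bta-miR-30c*, -0.2206 to 0.2829 for *bta-miR-30e-5p* and -0.4806 to 0.0614 for *bta-miR-30f*, and in FC -0.3377 to 0.049 for *bta-miR-30d* and -0.3395 to 0.2308 for *bta-miR-30e-5p*. For EX against FC at 25 months the range for *bta-miR-30c* was -0.0862 to 0.0053. With library totals alone, the values between 20 and 25 months were -0.0951 for *bta-miR-30b-5p* and -0.0805 for *bta-miR-30e-5p* in EX and -0.0547 for *bta-miR-30e-5p* in FC, and the change of EX against FC was 0.1545 for *bta-miR-30a-5p*. With divided counts, *bta-miR-30b-5p* in EX between 20 and 25 months was -0.0404, and *bta-miR-30f* was 0.6074 in EX against FC at 30 months, where it was -3.63 as reported and passed by DESeq2 and without steer 3, and 1.0171 in its change, against -3.28 as reported. The cause was not tested.

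The values rest on 3 steers, and without 1 of them on 2. The most common count took its largest share of the total among all 18 libraries in the 3 EX libraries at 30 months, where *bta-miR-30b-5p* and *bta-miR-30c* stood close to it and *bta-miR-30f* was at 0 in 2 of 3.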
